A study of Mus musculus with 14 samples.

Results

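MHC class II and costimulatory genes were followed across 3 mouse bone marrow populations treated with PBS or with IL-1β, an inflammatory cytokine. They are the 10 genes H2-Aa, H2-Ab1, H2-Eb1, Cd74, H2-DMa, H2-DMb1, Ciita, Cd80, Cd86 and Cd40, chosen by name from the 55487 genes counted in every library. The rule itself uses no measured value, but the choice was made with earlier results of these data known. The study asked how IL-1β alters gene expression in haematopoietic progenitors that carry Jak2V617F, the kinase mutation of myeloproliferative neoplasms, and in marrow stromal cultures. LSK cells (Lin-Sca1+c-kit+, enriched for stem cells and multipotent progenitors) and LK cells (Lin-c-kit+, myeloid progenitors, a gate that as stated does not exclude Sca1+ cells) were sorted from lineage-depleted marrow. Both came from C57BL/6 recipients that had been lethally irradiated and transplanted with Mx1Cre; Jak2VF/+ marrow, in which the heterozygous Jak2V617F allele is switched on by Cre after pI-pC injection, so PBS and IL-1β groups alike carried the mutation and pI-pC exposure. Mx1Cre acts in many interferon-responsive cells and not in blood cells alone, and no sort of donor from host cells was stated. The mice received PBS (3 libraries per population) or 0.5 μg IL-1β (2 libraries per population) 3 times a week for 16 weeks, and their age was not given per sample. The MSC libraries were made from wild-type C57BL/6 marrow grown for 21 days and treated for 72 h with PBS (2 libraries, replicates 2 and 3) or 5 ng/ml IL-1β (2 libraries, replicates 1 and 2). The study describes its experiments in general as independently repeated, but the labels do not tie each library to an animal or culture, so the p-values below measure only the spread between these libraries.

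MHC class II molecules present peptides from engulfed proteins to CD4+ T cells. Each is a pair of an α and a β chain (H2-Aa with H2-Ab1 for I-A), held until loading by the invariant chain Cd74 and filled with peptide with the help of the H2-DMa and H2-DMb1 heterodimer. Ciita is the transactivator without which class II genes are hardly transcribed: it does not bind DNA itself but docks on the RFX, CREB and NF-Y proteins seated on the X and Y boxes of their promoters. H2-Eb1 encodes the β chain of I-E, which C57BL/6 mice do not display at the surface because their α chain gene, H2-Ea-ps, is broken. Cd80 and Cd86 bind CD28 and CTLA4 on T cells, and Cd40 receives CD40 ligand from them. High levels of these genes mark dendritic cells, B cells and activated macrophages, and some haematopoietic stem and early progenitor cells also carry class II.

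Promoter letters are shown for H2-Aa and H2-Eb1, both called lower in LSK cells with IL-1β. Letters were matched exactly, so a box that departs from them is not marked. An unmarked X box in H2-Aa therefore does not mean that the gene lacks one. RefSeq promoter windows (GRCm38.p6, 250 bases before to 50 after the start) were examined for 5 of the 10 genes. Cd74 was left out of these. In the stretch from base -150 to base -31, capitals mark the Y box letters CTGATTGG in both genes, the X box core in H2-Eb1 and the cAMP element TGACGTCA in H2-Aa.
H2-Aa (chr17:34287854-34287973, minus strand): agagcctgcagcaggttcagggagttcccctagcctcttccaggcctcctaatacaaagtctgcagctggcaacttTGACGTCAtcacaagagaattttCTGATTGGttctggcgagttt
H2-Eb1 (chr17:34305717-34305836, plus strand): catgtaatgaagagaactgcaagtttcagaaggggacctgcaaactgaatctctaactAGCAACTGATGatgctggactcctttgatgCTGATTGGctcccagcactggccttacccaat
The Y box letters began at base -51 in H2-Aa and -62 in H2-Eb1. Both strands of all 32851 windows were searched, and 4.10% of them held CTGATTGG, within which lies ATTGG, found in 37.4%. The X box core was in 0.298% of windows, among them H2-Eb1 at -92 and H2-DMb1 at -95, and TGACGTCA, at -74 in H2-Aa, was in 1.79%. The STAT site letters TTCNNNGAA, the NF-kB site and the IRF site were in 8.30%, 1.47% and 3.44% of windows. None was in the 6 windows of the 5 members examined, which do not include Cd74. A match is a description of letters and says nothing of what is bound.

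By position, 5 of the 10 genes lie in the class II region of chromosome 17 (GRCm38): H2-DMa at chr17:34119541-34139101, H2-DMb1 at chr17:34153072-34160230, H2-Ab1 at chr17:34257689-34269419, H2-Aa at chr17:34282744-34287823 on the minus strand and H2-Eb1 at chr17:34305867-34316674. Ciita (chr16:10480059-10528418), Cd86 (chr16:36603869-36666081, minus strand) and Cd80 (chr16:38455561-38496335) share chromosome 16, and Cd40 lies at chr2:165055627-165072948. Of the 50-base words in the transcripts of H2-DMb1, 22.7% also occur in its paralog H2-DMb2, and pairs that map to both were not counted, so the H2-DMb1 count is uncertain. The share was 0.488% for H2-Aa, 0.334% for Cd40 and 0 for the other members.

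The counts summed to 12172400 to 18544346 read pairs in the 6 PBS libraries of LSK and LK, and to 4393233 to 8641124 in the 4 IL-1β libraries, so every IL-1β library was shallower than every PBS library. MSC totals ran from 5834909 to 30871055. Of 8 stem and progenitor markers, 8 were called higher in LSK than in LK with PBS, Ly6a (Sca-1) among them at a mean of 34.1 against 0.589 CPM. In the MSC libraries the summed level of 12 mesenchymal markers was 1484 to 4325 CPM (counts scaled for depth, after TMM), with Col1a1, Col1a2 and Col3a1 the highest in each library and Lepr at 0 in both PBS libraries. In the same libraries 12 macrophage and monocyte markers, such as Adgre1, Csf1r and C1qa, summed to 8608 to 14487 CPM, against 53.2 to 229.6 CPM in LSK and LK.

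Levels between genes are compared per length, in TPM (length-scaled abundance, from counts and exon length). With PBS, LSK cells held the class II genes at far higher levels than the costimulatory genes. Cd74 stood highest at a mean of 231 TPM ± 39.7 (SD, n = 3), followed by H2-Ab1 (152 ± 52.0), H2-DMa (114 ± 15.2), H2-Eb1 (102 ± 34.7), H2-Aa (85.1 ± 15.5) and H2-DMb1 (64.6 ± 32.4). In that order the library ranges of each gene and the next overlapped. Ciita followed at 2.96 TPM ± 0.823, set apart from H2-DMb1 above and Cd86 below.

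In LK cells with PBS the order was another one. H2-DMa (33.2 TPM ± 13.6) and H2-Ab1 (32.7 ± 14.8) led, then H2-DMb1 (21.2 ± 11.4) and Cd74 (13.2 ± 3.45), each overlapping its neighbour. H2-Eb1 (4.68 ± 2.83) and H2-Aa (4.46 ± 2.26) came well below, and Ciita was at 0.222 ± 0.0823.

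MSC cultures with PBS had the highest Cd74, 859 TPM in replicate 2 and 417 in replicate 3. H2-Ab1 (134 TPM ± 57.9, n = 2), H2-Eb1 (112 ± 50.7), H2-DMb1 (87.2 ± 1.43) and H2-Aa (81.0 ± 32.5) were near the LSK levels, with overlapping ranges. H2-DMa was lower, at 20.9 ± 5.51 TPM. Cd80 (9.52 ± 2.16), Cd86 (4.88 ± 2.39) and Cd40 (3.07 ± 0.122) were each higher in every MSC library than in any LSK or LK library. MSC were not tested against LSK or LK cells, since culture, genotype and source differed together.

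**Figure D1:**
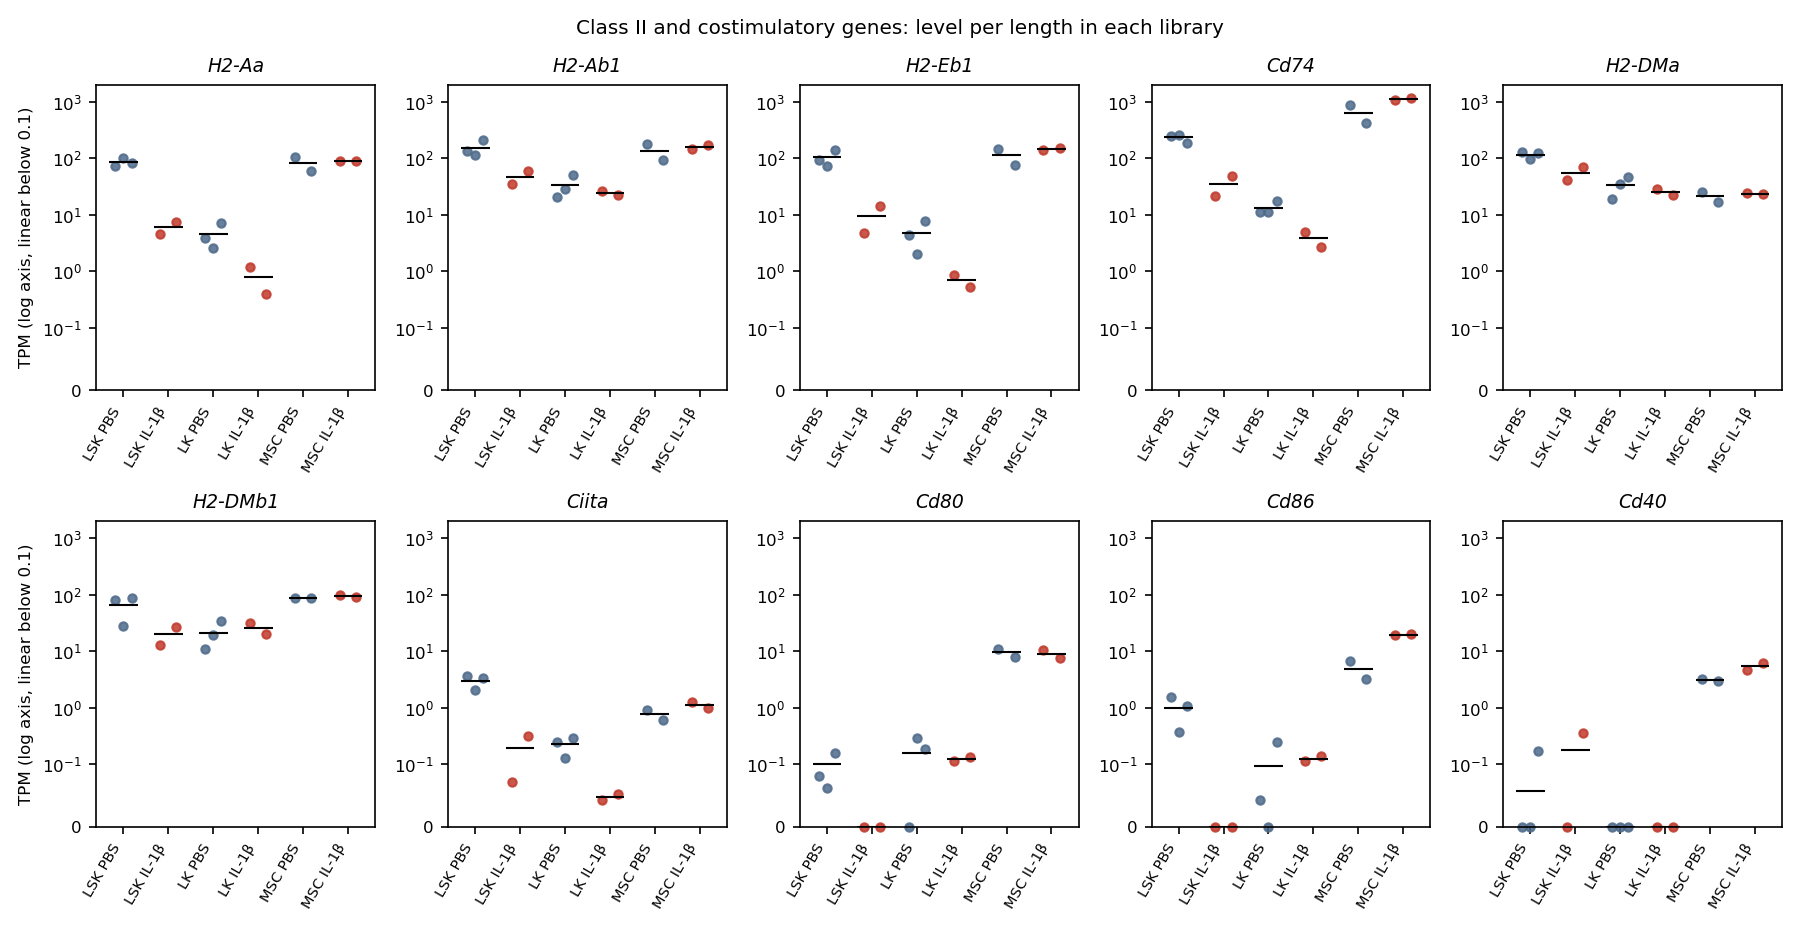
Level per length (TPM, log axis that is linear below 0.1) of the 10 genes in each library, 1 panel a gene; points are libraries (blue PBS, red IL-1β), bars are group means. In LSK, Cd74 lies at 186 to 260 TPM in the PBS libraries and at 21.1 and 48.6 TPM in the IL-1β libraries, while Cd86 in MSC stood at 3.19 and 6.57 TPM with PBS and at 19.4 and 19.7 TPM with IL-1β.

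The first comparison asked what IL-1β treatment of the mice did to these genes in LSK cells. The α chain gene H2-Aa and the β chain gene H2-Eb1 fell (log2 fold change -3.48, SE 0.43, and -3.06, SE 0.54). The invariant chain Cd74, the transactivator Ciita and the β chain gene H2-Ab1 were also lower in every IL-1β library than in any PBS library but did not pass the test. All 8 members that could be tested had a log2 fold change below 0, and in 7 of the 8 every IL-1β value in CPM lay below every PBS value. Calls needed an adjusted p under 0.05 (quasi-likelihood test of edgeR, Benjamini-Hochberg adjustment over 13132 genes) and a log2 fold change beyond 0.5. Called lower were 2 of 8 members against 0.312% of all genes, and lower in every library 7 of 8 against 21.4%. The members' median log2 fold change was -2.70, or -1.82 with Cd86 at its bound, beside -0.06 over all genes.

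H2-Aa measured 70.9, 102 and 82.8 TPM in the 3 PBS libraries of LSK cells and 4.62 and 7.53 TPM in the IL-1β libraries. The groups lie far apart (adjusted p = 0.0121). H2-Eb1 measured 92.9, 73.1 and 141 TPM with PBS and 4.78 and 14.4 TPM with IL-1β (adjusted p = 0.0448). Its 2 IL-1β libraries differed from each other by more than those of H2-Aa did, but both stayed below all PBS libraries. In bulk RNA, fewer cells that carry class II and less class II RNA per cell cannot be told apart.

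H2-Ab1, whose protein pairs with that of H2-Aa, measured 133, 112 and 210.4 TPM with PBS and 34.7 and 59.3 TPM with IL-1β. The log2 fold change was -1.30 (SE 0.39, adjusted p = 0.142). Within each library the TPM ratio of H2-Ab1 to H2-Aa ran from 1.10 to 2.54 with PBS and was 7.51 and 7.87 with IL-1β, so it was larger in both IL-1β libraries. Its size depends on the exon lengths used, 3798 bases for H2-Aa and 2568 for H2-Ab1. In read pairs, PBS replicate 2 held more H2-Aa (1681) than H2-Ab1 (1247), so only the change of the ratio is read. This ratio needs no scaling between libraries, but it was picked after the values were seen and was not tested.

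Cd74 measured 248, 260 and 186 TPM with PBS and 21.1 and 48.6 TPM with IL-1β (log2 fold change -2.35, SE 0.43, adjusted p = 0.0522). It lay just outside the threshold and passed it when 1 PBS library was left out, whichever of the 3 it was, with adjusted p values from 0.00526 to 0.0499. Ciita measured 3.56, 2.02 and 3.30 TPM with PBS and 0.0722 and 0.319 TPM with IL-1β, that is 84 to 161 read pairs against 2 and 5. Its log2 fold change of -3.59 (SE 0.84, adjusted p = 0.0843) was the lowest among the members with reads in every library.

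The peptide-loading genes H2-DMa and H2-DMb1 had smaller fold changes and did not pass the test. H2-DMa measured 125, 97.1 and 120 TPM (PBS) and 41.7 and 69.0 TPM (IL-1β), with a log2 fold change of -0.64 (SE 0.31, adjusted p = 0.294). H2-DMb1 measured 78.7, 27.6 and 87.6 TPM with PBS and 12.9 and 26.8 TPM with IL-1β (log2 fold change -1.27, SE 0.52, adjusted p = 0.241). On the CPM scale PBS replicate 2 and an IL-1β library of H2-DMb1 overlapped. The TPM ratio of H2-Aa to H2-DMa went from 0.565 to 1.05 with PBS to 0.109 and 0.111 with IL-1β.

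Costimulatory genes were scarce in LSK cells. Cd86 had 19, 6 and 20 read pairs in the PBS libraries and 0 in both IL-1β libraries. Set against a floor of 3 read pairs per library, this makes Cd86 at least 2.10-fold lower with IL-1β, and its test did not pass (adjusted p = 0.208). The floor covers counting error only. Cd80 (1, 1 and 3 pairs against 0 and 0) and Cd40 (0, 0 and 3 against 0 and 2) were at or under the floor in both groups and were not tested.

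The LSK calls rest on both IL-1β libraries: without IL-1β replicate 1 or 2, no member was called, and H2-Aa had an adjusted p of 0.138 and 0.142, with log2 fold changes of -3.06 and -3.94. The same libraries moved H2-Eb1 to -2.35 and -4.12, Cd74 to -1.79 and -3.17, and Ciita to -2.70 and -4.98. limma-voom called no member either (adjusted p = 0.0588 for H2-Aa and 0.111 for H2-Eb1), while DESeq2 called 5. The direction of all 8 was kept in every alternative run.

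In LK cells, the same comparison started from much lower levels. H2-Aa (log2 fold change -2.60, SE 0.66, adjusted p = 0.0440) and Cd74 (-1.93, SE 0.42, adjusted p = 0.0243) fell. H2-Eb1 and Ciita did not overlap between the groups and were lower with IL-1β, without passing the test, and H2-DMb1 overlapped. Called lower were 2 of 7 tested members against 2.57% of 12835 genes, and lower in every library, in CPM, 5 of 7 against 22.2%. Over the 7 the log2 fold changes had a median of -1.93, beside -0.03 over all genes.

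H2-Aa measured 3.81, 2.61 and 6.98 TPM with PBS and 1.20 and 0.395 TPM with IL-1β in LK cells. Cd74 measured 11.1, 11.3 and 17.1 TPM with PBS and 4.94 and 2.68 TPM with IL-1β. H2-Eb1 had 54, 22 and 65 read pairs with PBS and 4 and 2 with IL-1β (log2 fold change -2.91, SE 0.83, adjusted p = 0.0634). None of the 3 genes overlapped between the groups, and all 3 rest on few reads in the IL-1β libraries.

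H2-Ab1 (log2 fold change -0.56, SE 0.27, adjusted p = 0.255) and H2-DMa (-0.48, SE 0.22, adjusted p = 0.234) did not pass the test. H2-Ab1 measured 20.5, 28.3 and 49.2 TPM with PBS and 26.0 and 21.8 TPM with IL-1β, which overlap. H2-DMa measured 19.1, 34.1 and 46.3 TPM with PBS and 28.7 and 22.1 TPM with IL-1β, which overlap in TPM but not in CPM. The TPM ratio of H2-Ab1 to H2-Aa was 5.40 to 10.9 with PBS and 21.6 and 55.2 with IL-1β, so here too the ratio was larger in both IL-1β libraries. H2-DMb1 measured 10.96, 19.2 and 33.6 TPM with PBS and 31.1 and 20.2 TPM with IL-1β (log2 fold change 0.20, SE 0.35, adjusted p = 0.766).

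Ciita had 15, 7 and 12 read pairs in the LK libraries with PBS and 1 in each IL-1β library. Per read pair sequenced, PBS over IL-1β was 5.26-fold, with an exact binomial 95% interval of 1.35 to 45.2 that covers counting error only (edgeR adjusted p = 0.220). Cd86 (1, 0 and 4 against 1 and 1) and Cd80 (0, 6 and 3 against 1 and 1) gave ratios of 0.773 (0.127 to 8.12) and 1.39 (0.288 to 13.2), and Cd40 had no read in any LK library. At this depth no difference in the 3 costimulatory genes was detectable in LK cells. No member was called in LK cells without IL-1β replicate 1, without IL-1β replicate 2 or without PBS replicate 1, and limma-voom called none.

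An interaction term over the 10 libraries tested if the 2 sorted populations responded differently to IL-1β. None of the 8 members tested by edgeR was called, against 0.0289% of 13839 genes, and neither DESeq2 nor limma-voom called one. By edgeR 1 member had an unadjusted p under 0.05, Cd86, which has no read in LSK with IL-1β (adjusted p = 0.339). For H2-DMb1 the edgeR adjusted p was 0.353. For H2-Aa the response in LSK minus that in LK was -0.93 (SE 0.85, adjusted p = 0.655), and for Cd74 it was -0.47 (SE 0.65, adjusted p = 0.782). These errors leave room for differences of more than 1 on the log2 scale for H2-Aa, so the test does not show that the responses were alike.

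**Figure D2:**
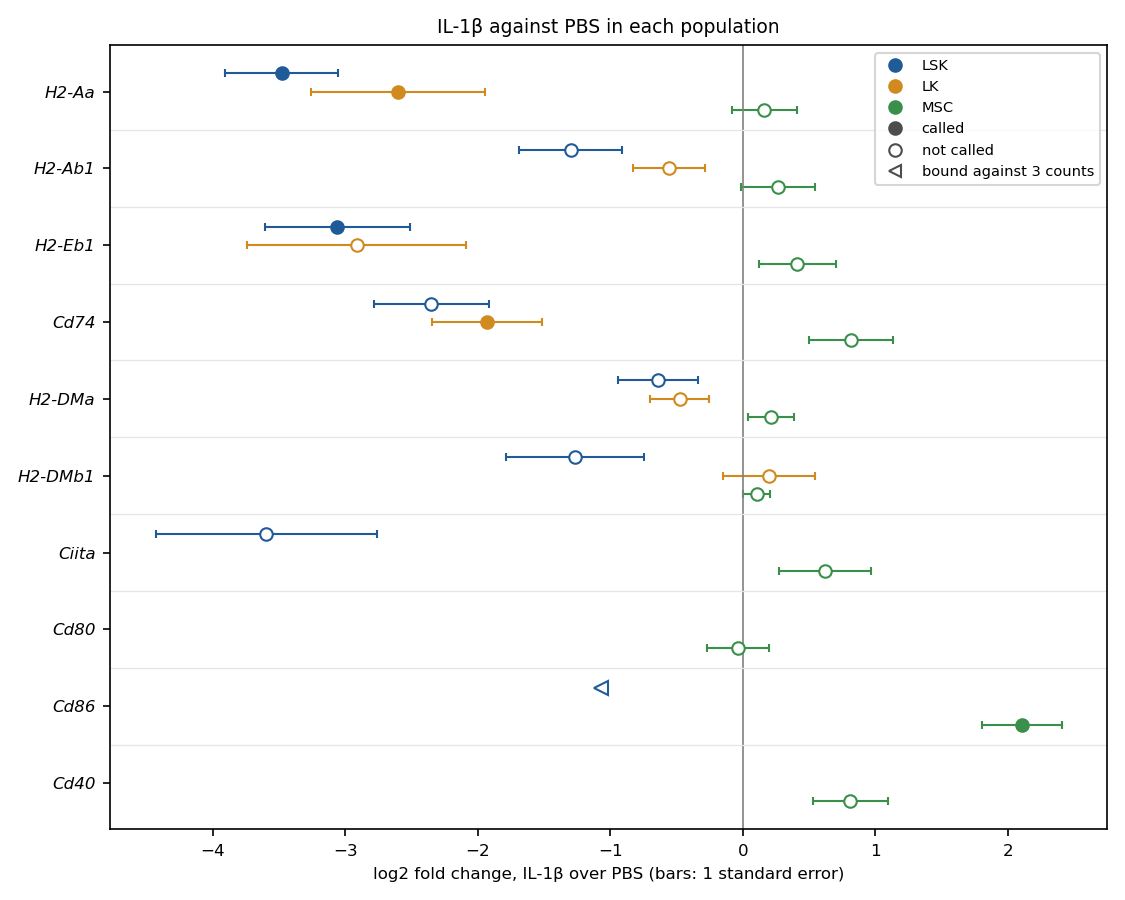
Log2 fold change of IL-1β over PBS for each gene (rows) in LSK (blue), LK (orange) and MSC (green), with bars of 1 standard error; filled points were called, open points were not, and the triangle is the bound for Cd86 in LSK. H2-Aa lies at -3.48 in LSK and -2.60 in LK, and Cd86 at 2.11 in MSC; genes or groups at or under 3 read pairs are not drawn.

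LSK cells were then compared with LK cells under each treatment. With PBS, 7 of the 8 members tested were called higher in LSK cells, against 19.4% of 13839 genes, and 7 of 8 were higher in every LSK library, against 26.2%. The median log2 difference was 3.19 over the 8 and 0.09 over all genes. The largest differences were in H2-Eb1 (log2 difference 4.14, SE 0.54, adjusted p = 0.000222), H2-Aa (3.99, SE 0.43, adjusted p = 6.88e-05) and Cd74 (3.86, SE 0.37, adjusted p = 3.83e-05), with Ciita close behind (3.34, SE 0.62, adjusted p = 0.00185). H2-Ab1 (1.98, SE 0.32), H2-DMa (1.56, SE 0.25) and H2-DMb1 (1.35, SE 0.43, adjusted p = 0.0299) differed less. Of these 7, H2-DMb1 alone overlapped between the populations.

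Cd86 was the eighth, with 19, 6 and 20 read pairs in LSK and 1, 0 and 4 in LK (log2 difference 3.03, SE 1.13, adjusted p = 0.0620). Cd80 and Cd40 were not tested. The H2-DMb1 call was lost without any one of 6 of the 10 libraries, at adjusted p values up to 0.115, and the other 6 calls held in every alternative run.

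With IL-1β, 6 of 8 were higher in every LSK library, against 27.1% of genes, and 4 of 8 were called higher, against 2.13%: H2-Eb1 (log2 difference 3.94, SE 0.92, adjusted p = 0.0344), Cd74 (3.39, SE 0.53, adjusted p = 0.00529), H2-Aa (3.06, SE 0.68, adjusted p = 0.0260) and H2-DMa (1.36, SE 0.31, adjusted p = 0.0324). H2-Ab1 (1.20, SE 0.41) had an adjusted p of 0.117, and of 0.0447 with the replicate number as a block. Ciita, at 2 and 5 read pairs in LSK and 1 and 1 in LK, had a ratio of 3.76 (exact binomial 95% interval 0.717 to 37.1). H2-DMb1 lay at -0.15 (SE 0.55, adjusted p = 0.907). Leaving out LSK replicate 2, LK replicate 1 or LK replicate 2 of the IL-1β libraries left 0 or 1 member called.

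**Figure D3:**
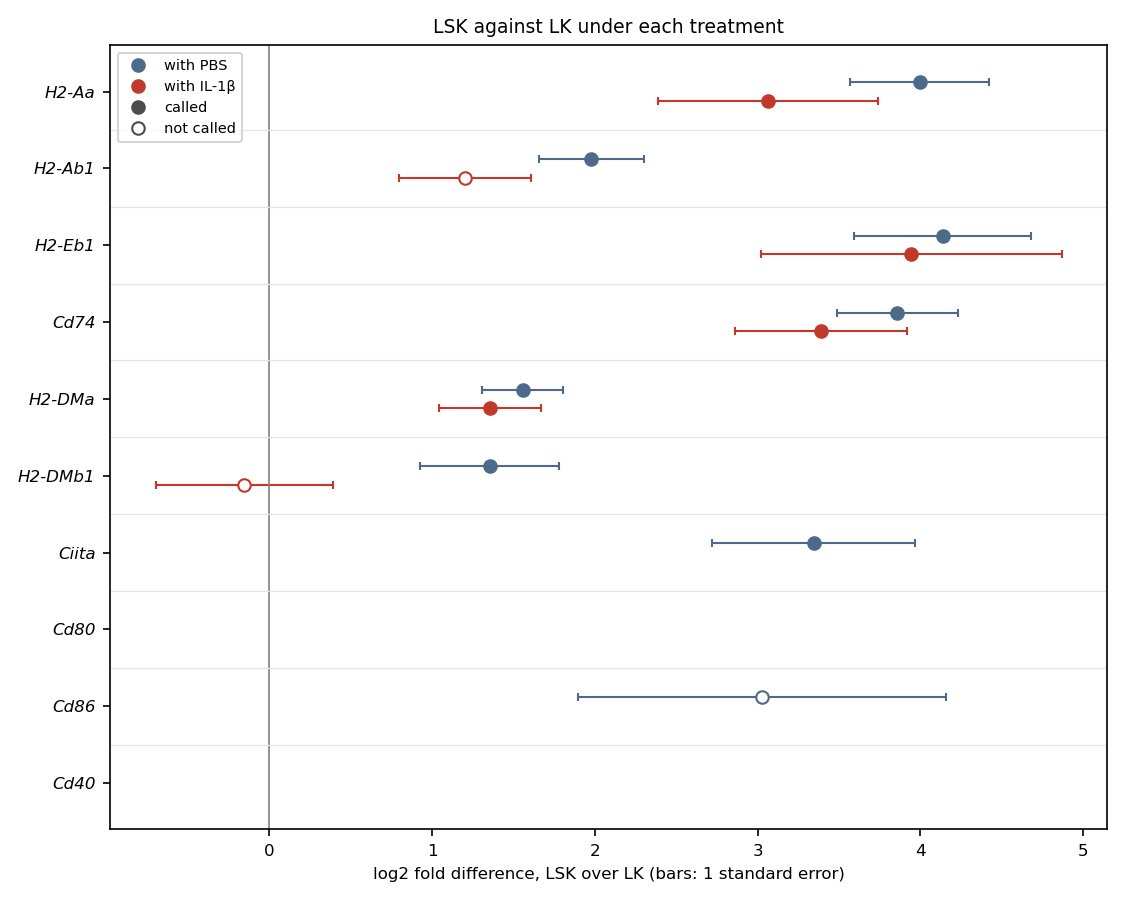
Log2 fold difference of LSK over LK for each gene (rows) with PBS (blue) and with IL-1β (red), with bars of 1 standard error; filled points were called. With PBS, H2-Eb1, H2-Aa and Cd74 lie between 3.86 and 4.14, and H2-DMb1 lies at 1.35 with PBS and at -0.15 with IL-1β.

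In MSC cultures 1 member, a different one, was called. Cd86, the CD28 ligand, rose (log2 fold change 2.11, SE 0.30, adjusted p = 0.0142). It measured 6.57 and 3.19 TPM with PBS (replicates 2 and 3) and 19.4 and 19.7 TPM with IL-1β (replicates 1 and 2), so all values with IL-1β were above those with PBS. Of the 10 members 1 was called higher, against 7.14% of 13239 genes. Higher in every library were 5 of 10 against 31.3%. Over the 10 the log2 fold changes had a median of 0.34, beside 0.0044 over all genes.

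Cd40 measured 3.15 and 2.98 TPM with PBS and 4.64 and 6.17 TPM with IL-1β (log2 fold change 0.81, SE 0.28, adjusted p = 0.123). Cd74 measured 859 and 417 TPM with PBS and 1059 and 1145 TPM with IL-1β (0.82, SE 0.32, adjusted p = 0.171). Ciita had 17 and 27 read pairs with PBS and 122 and 37 with IL-1β in libraries of unequal depth (0.62, SE 0.35, adjusted p = 0.289). These 3 genes did not overlap between the groups but did not pass the test. Cd80, the other CD28 ligand, measured 11.05 and 7.99 TPM with PBS and 10.5 and 7.54 TPM with IL-1β, which overlap (-0.04, SE 0.23, adjusted p = 0.935).

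For H2-Aa (log2 fold change 0.16, SE 0.25), H2-Ab1 (0.26, SE 0.28), H2-Eb1 (0.41, SE 0.29), H2-DMa (0.21, SE 0.18) and H2-DMb1 (0.11, SE 0.10), adjusted p values lay between 0.410 and 0.709. The spread in most of these came from the PBS libraries: replicate 2 was above replicate 3 in H2-Aa (104 against 58.0 TPM), H2-Ab1 (175 against 93.4), H2-Eb1 (147 against 75.7) and Cd74. Without PBS replicate 2, 7 members were called higher, and without PBS replicate 3 the H2-Aa, H2-Ab1 and H2-DMa changes turned to -0.17, -0.10 and -0.0053. Without IL-1β replicate 1 or 2, Cd86 kept a log2 fold change of 2.11 and 2.03 but was not called, at adjusted p values of 0.202 and 0.166.

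The TPM ratio of H2-Ab1 to H2-Aa was 1.61 and 1.69 in the MSC libraries with PBS and 1.67 and 1.89 with IL-1β. Cd74 over H2-Aa was 7.20 and 8.26 in the PBS libraries and 12.01 and 12.9 with IL-1β, higher than in any LSK or LK library. H2-Eb1 over H2-Aa ran from 0.710 to 1.91 over all 14 libraries, and its groups overlapped between PBS and IL-1β in LSK and in LK.

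**Figure D4:**
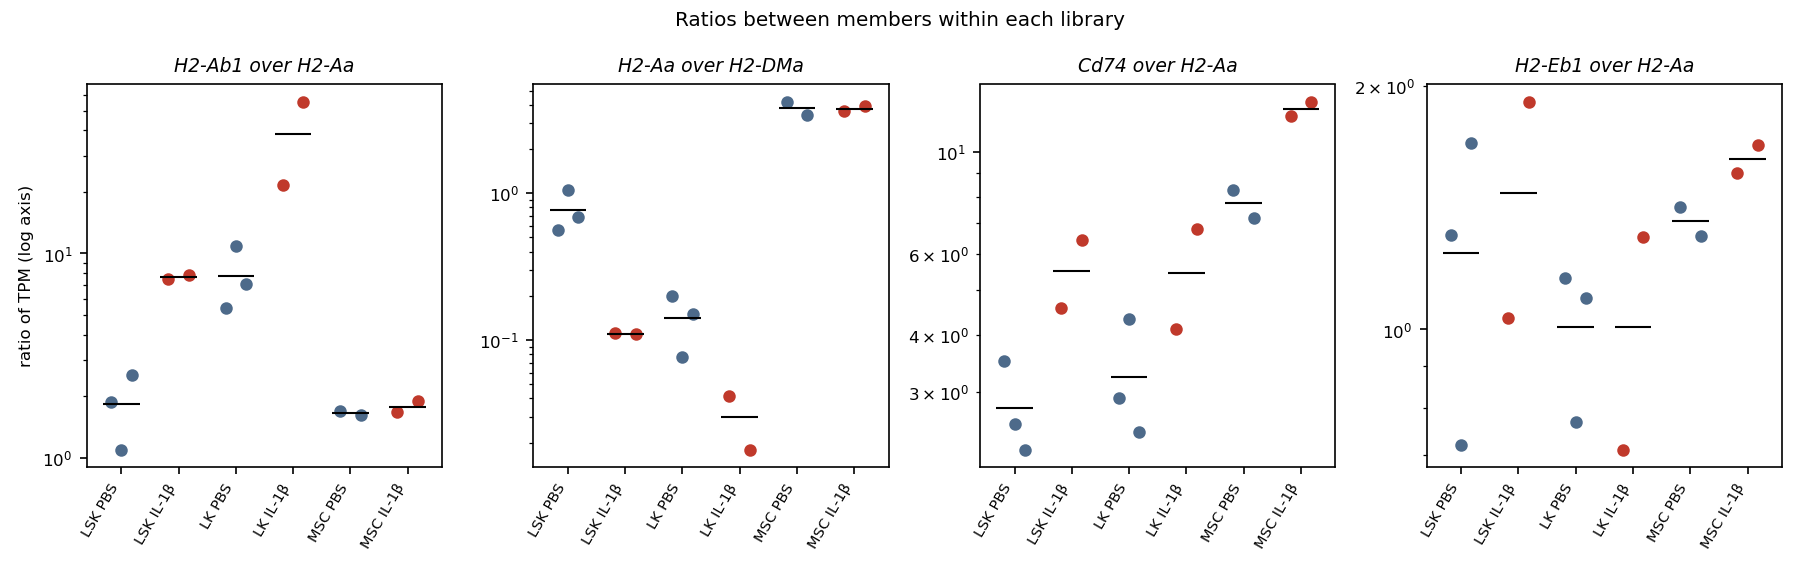
Ratio of TPM between members within each library (log axis, 1 panel a ratio); points are libraries (blue PBS, red IL-1β) and bars are means. With IL-1β, H2-Ab1 over H2-Aa lies at 7.51 and 7.87 in LSK and at 21.6 and 55.2 in LK, and in both treatments it lies between 1.61 and 1.89 in MSC.

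Around the members, other genes of the pathway were read from lists. Of the class II promoter factors on which Ciita docks (Rfx5, Rfxap, Rfxank, Nfya, Nfyb, Nfyc and Creb1), edgeR called 0 of 7 in LSK, in LK and in MSC. Of these 1, 1 and 0 had an unadjusted p under 0.05. Over all genes, 0.632% were called either way in LSK, 9.34% in LK and 11.4% in MSC. A count of 0 of 7 beside such shares does not show that the factors were unchanged. The median log2 fold changes of the 7 factors were -0.21, -0.11 and 0.06. Rfx5, for example, was at -0.43 (SE 0.30) in LSK with IL-1β, where Ciita, also not called, was at -3.59. The largest change of the 7 in LSK was in Nfya, at -0.74 (SE 0.25, adjusted p = 0.171). Nfya was lower in every IL-1β library than in any PBS library, and Rfx5 overlapped. Between LSK and LK with PBS, 3 of the 7 were called higher in LSK: Rfx5 (log2 difference 0.80), Creb1 (0.71) and Nfya (0.67).

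Among 8 genes of the interferon-γ axis, which drives Ciita in many cells, Irf8 fell in both sorted populations (log2 fold change -2.48, SE 0.35, adjusted p = 0.0207 in LSK, and -2.59, SE 0.38, adjusted p = 0.0122 in LK). Irf8, a factor needed for dendritic cells and monocytes, measured 206, 158 and 95.4 CPM with PBS and 24.6 and 28.9 CPM with IL-1β in LSK. The other 7 were not called in either. In MSC 2 of 8 rose, among them Irf1 (0.58, SE 0.10, adjusted p = 0.0243), and Irf8 was at 0.10 (SE 0.12). Between LSK and LK with PBS, 4 of the 8, among them Irf1 (2.07) and Socs1 (1.76), were higher in LSK and Ifngr1 (-1.44), the receptor chain, was lower.

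Of 8 genes that cut antigens and the invariant chain or remove class II from the surface, none was called in LSK, where 3 higher and 2 lower had an unadjusted p under 0.05. In LK, Ctss, the protease that trims the invariant chain, fell (log2 fold change -2.49, SE 0.31, adjusted p = 0.00394), and so did Ifi30, a lysosomal thiol reductase (-0.86, SE 0.17, adjusted p = 0.0180), 2 of 7 tested. Ctss was at -1.16 (SE 0.41, adjusted p = 0.193) in LSK. In MSC, March1, a ubiquitin ligase that sends class II and Cd86 to degradation (1.13, SE 0.10, adjusted p = 0.00344), Ctsl (1.06, SE 0.13, adjusted p = 0.00993) and Lgmn (0.57, SE 0.13, adjusted p = 0.0467) rose.

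Of the other class II genes, H2-Ob, a chain of the H2-DM inhibitor H2-O, was at a mean of 39.5 CPM with PBS and 16.1 CPM with IL-1β in LSK (log2 fold change -1.29, SE 0.40, adjusted p = 0.150) and was higher in LSK than in LK with PBS (2.46, SE 0.35, adjusted p = 0.000357). H2-Oa was at -0.18 (SE 0.52) in LSK. None of 3 tested genes of this list was called with IL-1β in LSK or LK, where 1 and 0 had an unadjusted p under 0.05.

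Among 15 further costimulatory and inhibitory ligands, 0 of 12 tested were called in LSK (3 at an unadjusted p under 0.05). In LK 1 of 9 was called, Vsir, an inhibitory ligand (log2 fold change 1.01, SE 0.19, adjusted p = 0.0151). In MSC 4 of 10 rose: Lgals9 (1.73, SE 0.15, adjusted p = 0.00362), Icam1 (1.14, SE 0.24, adjusted p = 0.0404), Cd274, which encodes PD-L1 (1.09, SE 0.11, adjusted p = 0.00513), and Nectin2 (0.97, SE 0.23, adjusted p = 0.0482). Between LSK and LK with PBS, 6 of 12 were higher in LSK and none lower, led by Pdcd1lg2 (4.52, SE 1.00), Cd276 (2.64, SE 0.73) and Cd274 (2.48, SE 0.31).

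**Figure D5:**
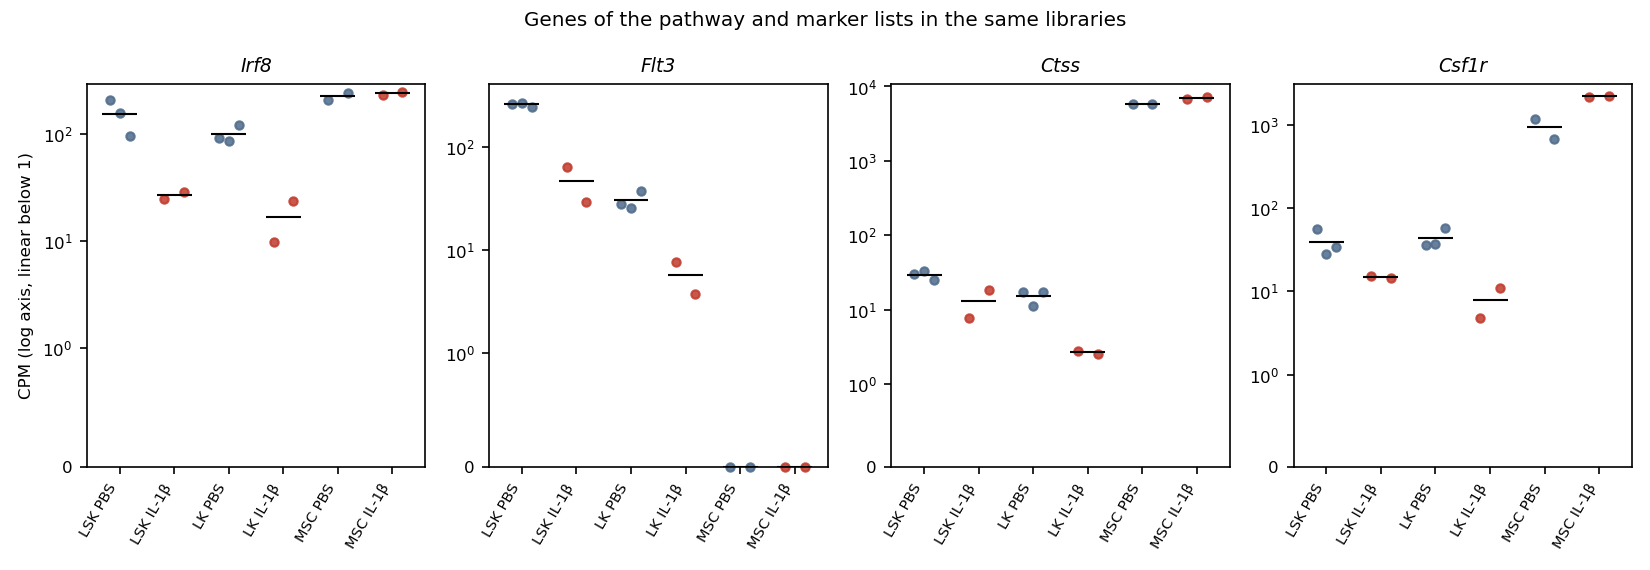
Level (CPM after TMM scaling, log axis that is linear below 1) of Irf8, Flt3, Ctss and Csf1r in each library; points are libraries (blue PBS, red IL-1β) and bars are group means. Irf8 lies between 95.4 and 206 CPM in LSK with PBS and at 24.6 and 28.9 CPM with IL-1β, and Flt3 has no reads in MSC.

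Markers of cell types moved in the same libraries. Flt3, the receptor tyrosine kinase of lymphoid-primed and dendritic progenitors, fell in LSK (log2 fold change -2.42, SE 0.35, adjusted p = 0.0207), from 262, 269 and 245 CPM to 63.8 and 29.2 CPM, and in LK (-2.39, SE 0.32, adjusted p = 0.00518). In LSK the stem and progenitor list held 2 called lower of 8, Hlf (-2.08) among them. All 8 were lower in every IL-1β library than in any PBS library, against 21.4% of all genes, with a median log2 fold change of -1.18. The neutrophil granule list held 3 called higher of 7, Elane, Mpo and Prtn3. That list summed to 2180 to 3169 CPM with PBS and to 9622 to 11473 CPM with IL-1β. In LK 6 of 8 neutrophil genes were called higher. The part of these shifts in the class II values was not tested.

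Markers of mature class II-bearing cells ranged from 0 to well above it in the sorted cells. Pax5 had no read in any LSK or LK library, and Ms4a1 had none in LSK with PBS or in LK, where the 8 B cell markers summed to 18.6 to 22.8 CPM in LSK with PBS and to 10.9 to 17.9 CPM with IL-1β. Cd79b, on the same list, measured 16.1, 5.73 and 21.7 CPM in LSK with PBS and 10.8 and 17.4 CPM with IL-1β, which overlap. The 9 dendritic cell markers summed to 251.4 to 291 CPM in LSK with PBS and to 31.9 to 65.8 CPM with IL-1β, of which Flt3 made up the largest part. Xcr1, Siglech, Cd209a and Ccr7 were at 0 in both IL-1β libraries. With PBS, in deeper libraries, Xcr1 had 9, 3 and 0 read pairs, Siglech 16, 0 and 0, and Cd209a 3, 0 and 2. Ccr7 had 32, 57 and 11. Zbtb46, a dendritic cell transcription factor on that list, measured 38.6, 34.1 and 26.1 CPM in LK with PBS and 14.4 and 22.5 CPM with IL-1β (log2 fold change -0.84, SE 0.24, adjusted p = 0.0679), and at most 5.11 CPM in LSK. The macrophage list summed to 59.2 to 103 CPM in LSK with PBS and to 53.2 to 80.1 CPM with IL-1β, which overlap. In LK it summed to 127 to 230 CPM with PBS and to 151 to 175 CPM with IL-1β, which also overlap. Of the 9 genes of the list tested in LK, 4 had a log2 fold change above 0 and 5 below. Csf1r alone was called there, as lower (-2.49, SE 0.40, adjusted p = 0.0135).

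In MSC the summed CPM of the macrophage list and of the mesenchymal list was higher with IL-1β, as Cd86 was, though the single mesenchymal genes were mixed. The macrophage list summed to 8608 and 10380.1 CPM with PBS and to 14476 and 14487 CPM with IL-1β, and 7 of 11 tested genes were called higher, among them Adgre1 (1.32, SE 0.13, adjusted p = 0.00468), Cd14 (1.40, adjusted p = 0.00604) and Csf1r (1.25, adjusted p = 0.0431). Cd68, on the same list, went the other way without being called. It measured 1520 and 1089 CPM with PBS and 1011 and 867 CPM with IL-1β. The mesenchymal list summed to 1484 and 2970 CPM with PBS and to 3806 and 4325 CPM with IL-1β, which do not overlap, and had 0 of 10 called by edgeR, with 2 at an unadjusted p under 0.05. Its sum leans on abundant collagen genes, such as Col3a1 (511 and 180 CPM with PBS, 1325 and 1498 with IL-1β). The median log2 fold change of the 10 was 0.17, with 7 above 0 and 3 below. Runx2 and Thy1 were lower in both IL-1β libraries. Itgax fell (-2.18, SE 0.38, adjusted p = 0.0332). Whether macrophages or stromal cells held the Cd86 and class II RNA was not tested.

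Over the 10 LSK and LK libraries, the genes whose log2 CPM ran most like the mean of H2-Aa, H2-Ab1, H2-Eb1 and Cd74 were Tmem98 (Pearson r = 0.99), Tbxa2r (0.98), Trpc6 (0.98), Cadps2 (0.98) and Tsc22d1 (0.97), out of 11022 genes. For Cd86 they were Rsl1 (0.98), Jup, Zc3h7b, Ifnar1 and Zfp729a (0.96 each). The libraries share the split into LSK and LK and the depth gap between treatments, and the Cd86 values rest on 0 to 20 read pairs, so these are descriptions only.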

How the data were processed

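RNA sequencing of 14 libraries was analysed (rRNA-depleted, stranded): LSK and LK cells with PBS (n = 3 each) or IL-1β (n = 2 each) and MSC with PBS or IL-1β (n = 2 each), grouped by the sample labels. The values the authors deposited are raw counts of read pairs per Ensembl gene. Per the labels and file headers, reads were trimmed with fastp 0.20.0, aligned with HISAT2 2.0.1 to GRCm38 and counted with featureCounts 2.0.2 in reverse-stranded mode, and multi-mapping pairs were not counted. The study's software list names the same tools and build, while its methods text names GenomicAlignments for counting and mm10. The exon lengths deposited in the same files gave TPM. Symbols matched 55141 of 55487 identifiers.

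Tests used edgeR 4.0.16 under R 4.3.3, within each population, with filterByExpr, TMM scaling, the robust quasi-likelihood test and Benjamini-Hochberg adjustment over all genes. LSK against LK and the interaction were fitted over 10 libraries. Calls needed an adjusted p below 0.05 with a log2 change beyond 0.5. The SE is the log2 fold change divided by the square root of F. The script was tested on simulated data. Library totals were 4393233 to 30871055, and the floor was 3 read pairs per library.

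Alternatives were DESeq2 1.42.0, limma-voom 3.58.1, other size factors and filters, no fold threshold, a replicate block, joint or separate fits and each library left out. LSK and LK libraries of the same number had correlated deviations from their group means (0.211, 0.128 and 0.472 with PBS and 0.100 for both pairs with IL-1β, which are 1 value since those groups hold 2 libraries). In the block the numbers were taken to pair LSK with LK, from the data and not from the labels. The correlations do not settle that pairing, since the LSK libraries numbered 1 of PBS and IL-1β also gave 0.126. The main tests used no block.

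The members and lists were chosen with earlier results of these data known. All members are named in each comparison, with up to 4 genes per list, called ones with the largest change first, and the 5 genes most like the class II mean and Cd86. Marker genes were named outside that rule, and so were Rfx5, Nfya in LSK, Irf8 in MSC, Ctss in LSK, H2-Oa and H2-Ob, chosen after their values were seen. Some genes of the lists are counted but not reported here by name.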

Additional observations from a re-analysis of the deposited data

Results flagged for a closer look

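Under IL-1β against PBS, 3 members differed in opposite directions in sorted cells and in MSC cultures, with no overlap between the treatments: Cd74 and Ciita in LSK and LK against MSC, and Cd86 in LSK against MSC. Over all genes, 21.4% were lower in every IL-1β library of LSK and 22.2% in LK. In MSC 31.3% were higher in every IL-1β library. The share of genes that did both was not computed, so the count of 3 has no yardstick. Cd74 was lower in all IL-1β libraries of LSK (log2 fold change -2.35) and of LK (-1.93) and higher in both of MSC (0.82), and was called in LK only, not in LSK (adjusted p = 0.0522) or MSC (0.171). Ciita was lower in LSK (-3.59) and LK (-2.35) and higher in MSC (0.62), and was called in none of them (edgeR adjusted p = 0.0843, 0.220 and 0.289). Cd86 had no read in the LSK libraries with IL-1β (not called, adjusted p = 0.208) and rose in MSC (2.11), while in LK it overlapped between the treatments. The differences between populations were not tested, and the treatments differed in genotype, route, dose and time. Groups of 2 or 3 libraries are too small for a test of outlying samples.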

How the results depend on the processing

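Members called lower in LSK numbered 2 in the reported fit, 5 with DESeq2, 0 with limma-voom, 6 with no filter on low counts, 4 with the replicate block, 5 in the joint fit of LSK and LK, and 0 to 4 with a library left out (0 without either IL-1β library, 4 without PBS replicate 2). In LK the 2 became 0 with limma-voom, 4 with no filter, 1 in the joint fit and 0 to 3 with a library left out. In MSC the 1 called higher became 2 with DESeq2, 2 with no filter, 0 in the joint fit of all libraries and 0 to 7 with a library left out. Between LSK and LK with IL-1β the 4 became 0 with limma-voom and 0 to 4 with a library left out, and with PBS the 7 were 6 to 8. Cd86 had no adjusted p from DESeq2 in LSK. Over all genes, the share called either way ran over the alternatives from 0.0211% to 8.87% in LSK, 0.492% to 19.7% in LK, 0.276% to 27.3% in MSC, 20.0% to 35.4% and 0.593% to 13.7% between LSK and LK with PBS and IL-1β, and 0 to 2.47% for the interaction. The causes were not tested. A group left with 1 library was assumed to vary like the other groups.

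Directions turned in 19 single-gene alternatives, none of a called value. With a library left out, H2-DMb1 ran from -0.16 to 0.58 in LK and from -0.89 to 0.32 (also 0.14) between LSK and LK with IL-1β. In MSC, H2-Aa ran from -0.17 to 0.58, H2-Ab1 from -0.10 to 0.72, H2-DMa from -0.0053 to 0.45 and Cd80 from -0.28 to 0.18 (also 0.14), and Cd80 was at 0.060 with limma-voom and 0.0058 with no filter. In the interaction, H2-Aa ran from -1.43 to 0.16, H2-Eb1 from -1.28 to 0.55 (also 0.15, 0.25 and 0.27), Cd74 from -1.31 to 0.14 (also 0.10) and H2-DMa from -0.74 to 0.24 (also 0.043).

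PBS and IL-1β libraries of 1 population share only a number (correlations 0.126, -0.035, -0.102 and 0.033). As a block it gave 4 calls in LSK, adding Cd74 (-2.58) and Ciita (-3.58), and 3 in LK, adding H2-Eb1 (-2.60). PBS replicate 3 has no partner there. Between LSK and LK the block changed no other call than that of H2-Ab1. No paired analysis was possible in MSC because the groups share 1 number only. The depth of the IL-1β libraries limits Ciita, Cd80, Cd86 and Cd40 in LSK and LK.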
